A study of Homo sapiens with 6 samples.

Results

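Metallothionein genes and their transcriptional activator MTF1 were followed in RNA sequencing of parental LNCaP cells and of LNCaP-enzaR, a subline of them that resists enzalutamide. The members are 8 gene symbols, MT1E, MT1F, MT1G, MT1H, MT1M, MT1X, MT2A and MTF1, and they were chosen on values measured in this same comparison. Their levels in both lines are therefore given as a description, without a test. Of the 8 symbols, 5 matched a row among the 35554 genes of the deposited count table (MT1F, MT1G, MT1X, MT2A and MTF1), and the other 3 (MT1E, MT1H and MT1M) were not analysed here. All 5 genes found were among the 19711 genes that passed the filter on low counts.

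LNCaP is a human cell line established from a prostate cancer metastasis, and its growth depends on androgens. Enzalutamide is a drug against this cancer that blocks signalling by androgens. LNCaP-enzaR is the outcome of unbroken exposure of LNCaP cells to this drug, which the study's methods place at a higher concentration during selection than in routine culture. The labels give no other allele or treatment for either line. Each line was grown as 3 flasks to about 70% confluence, and the labels call the flasks biological replicates. Whether cells were harvested in the presence of the drug is not given in the sources used here. Each line is a separate culture history, so effects of resistance, of the drug itself and of drift between the lines cannot be told apart, and the spread between flasks measures variation within a line only.

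Metallothioneins are small, cysteine-rich proteins that bind zinc and copper, buffer the free zinc of the cell and take up toxic metals such as cadmium. Their genes lie next to each other on the long arm of chromosome 16. MTF1 is a zinc-finger protein that senses zinc: when zinc is bound, it enters the nucleus and binds short metal response elements in front of metallothionein genes and of the zinc exporter gene SLC30A1. Glucocorticoids and oxidative stress also raise metallothionein transcripts. The normal prostate holds more zinc than most tissues, and prostate cancer cells hold less.

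The 250 bases before the transcription start of MT2A and of MT1X are shown because they hold matches to the core of the metal response element. Transcripts of these 2 genes took different courses in LNCaP-enzaR, and a link to these sequences was not tested. Both come from RefSeq (GRCh38.p14, plus strand), at chr16:56608334-56608583 for MT2A and chr16:56682220-56682469 for MT1X. Capitals mark the core of the metal response element, searched on both strands as TGCACNC or TGCGCNC, where N is any base.
MT2A: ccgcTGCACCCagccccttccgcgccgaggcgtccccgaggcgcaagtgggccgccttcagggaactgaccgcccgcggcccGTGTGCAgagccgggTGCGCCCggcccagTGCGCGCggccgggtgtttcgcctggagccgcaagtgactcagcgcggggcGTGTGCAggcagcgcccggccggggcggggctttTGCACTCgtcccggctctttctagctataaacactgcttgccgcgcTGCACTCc
MT1X: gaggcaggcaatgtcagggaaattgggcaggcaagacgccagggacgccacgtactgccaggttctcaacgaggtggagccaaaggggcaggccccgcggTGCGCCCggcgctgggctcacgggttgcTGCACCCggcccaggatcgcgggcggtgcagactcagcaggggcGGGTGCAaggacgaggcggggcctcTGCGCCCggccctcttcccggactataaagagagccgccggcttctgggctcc

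The MT2A sequence held 7 cores, 5 of them on the strand of the gene, with first bases 8 to 246 bases before the start. MT1X held 4 cores, 3 on its own strand, 53 to 150 bases before the start. Of 35116 RefSeq promoters of the same length, 24.8% held at least 1 core, 0.370% at least 4 and 0.0313% at least 7. The window before MTF1 itself held 0 cores, as did the median promoter. The promoter of MT1H, whose transcript was not analysed here, held 8 cores. A match of letters is a description of the sequence and shows no binding. MT1F and MT1G had no entry in the promoter table.

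The 4 metallothionein genes lie within 75.6 kb of chromosome 16 (GRCh38, coordinates of the deposited table). MT2A is at chr16:56608584-56609497, MT1F at chr16:56657731-56660698, MT1X at chr16:56682470-56684196, all on the plus strand, and MT1G lies on the minus strand at chr16:56666730-56668065. MTF1 is on the minus strand of chromosome 1, at chr1:37809574-37859592. All 5 are protein-coding genes, and the counts are those of reads in their exons. Their canonical transcripts are 401 to 425 bases long for the metallothioneins and 7937 bases for MTF1.

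Libraries held 77759122 to 98616465 counts. At that depth 3 counts correspond to 0.0302 to 0.0382 CPM (counts per 1000000 after scaling by TMM, a trimmed mean of the ratios between libraries), and such counting limits cover counting error only. Of 8 prostate luminal marker genes, all were above 1 CPM, with a summed level of 4710 to 4842 CPM in parental and 3005 to 3307 CPM in LNCaP-enzaR libraries. Leukocyte markers reached at most 5 counts in any library, and basal markers summed to at most 1.71 CPM. Fibroblast markers summed to 12.7 to 15.7 CPM in parental and 5.66 to 6.06 CPM in LNCaP-enzaR libraries. COL1A1 carried that sum (means of 13.4 and 4.29 CPM), while LUM was higher in LNCaP-enzaR (means of 0.425 and 1.44 CPM) and DCN was near 0 in parental (0.00366 CPM) and at 0.107 CPM in LNCaP-enzaR cells. Endothelial markers summed to 5.47 to 6.10 and 3.93 to 4.32 CPM. Mitochondrial transcripts made up 6.72% to 7.06% of the counts of parental and 14.7% to 15.5% of those of LNCaP-enzaR libraries. The part of these shifts in the differences between the lines was not tested. LNCaP-enzaR replicate 1 stood apart from the other libraries of its line: the chi-square of its counts per degree of freedom was 28.2 and 35.6 against replicates 3 and 2, compared with 6.97 between those 2 libraries and 5.56 to 9.06 within the parental line. The values of MT2A, the summed metallothioneins, MT3, MT1DP and ATOX1 are given with and without it. No pair of libraries was a duplicate.

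In LNCaP-enzaR the metallothionein transcripts took different courses. Those of MT1G were nearly lost, those of MT1F and MT1X were lower in each of the 3 libraries than in any parental library, and those of MT2A, the most abundant of them, overlapped between the lines, as did those of MTF1. Past both limits used here, adjusted p ≤ 0.05 and fold change ≥ 1.5, were 3 of the 5 genes, all of them lower, and 0 were higher. Among all genes tested, 42.7% passed these limits, with 23.3% higher and 19.5% lower in LNCaP-enzaR, and the members were selected on this contrast, so nothing is read from their count. The values of 3 of the 5 genes did not overlap between the lines, compared with 70.6% of all genes tested.

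**Figure D1:**
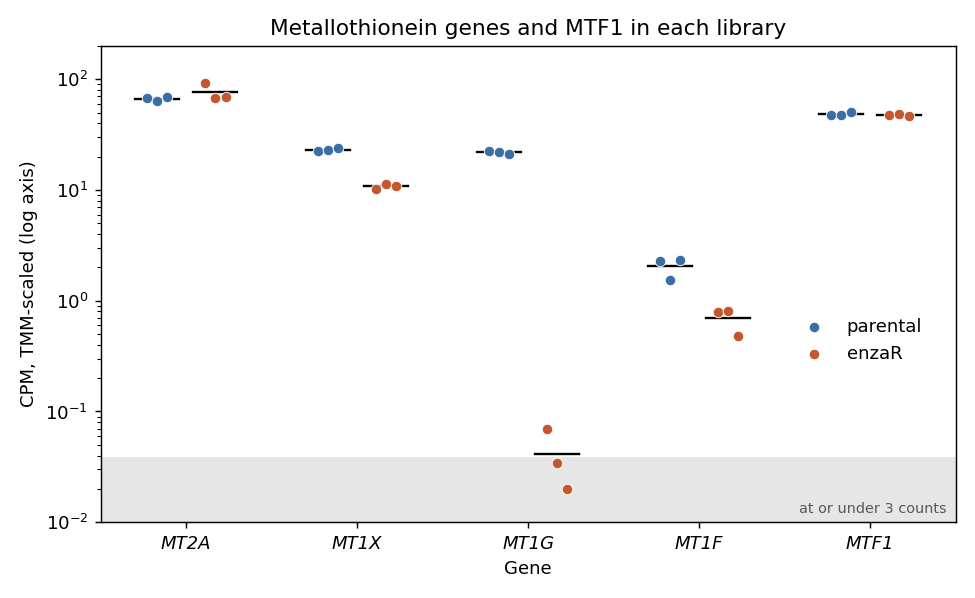
Each point is the level of a gene in 1 library, in TMM-scaled CPM on a log axis, for parental (blue) and LNCaP-enzaR (orange, labelled enzaR) cells; black bars are means of 3 libraries and the grey band marks levels up to those of 3 counts. In LNCaP-enzaR, MT1G lies in or near the band, MT1F and MT1X are lower without overlap, and MT2A and MTF1 overlap between the lines.

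MT1G (ENSG00000125144.14) encodes a metallothionein of the MT1 group. Its counts were 2098, 2011 and 1659 in the parental libraries and 6, 3 and 2 in the LNCaP-enzaR libraries. The parental values were close to each other, and of the LNCaP-enzaR libraries only replicate 1 was above 3 counts. In CPM, the level was 22.0 ± 0.784 in parental and 0.0412 ± 0.0255 in LNCaP-enzaR (SD, n = 3 each). Over the summed counts, 5768 against 11, parental cells had 548 times the LNCaP-enzaR level, with a 95% interval of 306 to 1098 for this ratio (exact, counting error only). The fitted log2 fold change was −9.04 (SE 0.180) and ranged from −9.61 to −8.69 when a library was left out. In bulk RNA, fewer cells with a transcript and fewer transcripts per cell cannot be told apart. None of the 311 stretches of 100 bases of the MT1G transcript occurs elsewhere in the genome or in another gene's transcript.

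MT1F (ENSG00000198417.7), another gene of the MT1 group, was the least abundant of the 4. It had 213, 140 and 182 counts in parental and 69, 72 and 48 in LNCaP-enzaR libraries. Every LNCaP-enzaR value was below the lowest parental value, and replicates varied more than those of MT1X, MT2A and MTF1. The level was 2.05 ± 0.445 CPM in parental and 0.700 ± 0.187 CPM in LNCaP-enzaR cells, which is −1.56 on the log2 scale (SE 0.244). The coefficient of variation was 21.7% and 26.7% in the 2 lines, beside a median of 4.26% in parental and 7.43% in LNCaP-enzaR cells over 12651 genes. Counts of 48 to 213 per library limit the precision of these values.

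MT1X (ENSG00000187193.9), an MT1 gene expressed in many tissues, had 2081, 2106 and 1876 counts in parental and 886, 994 and 1076 in LNCaP-enzaR libraries. The lines were well apart and replicates were close. Levels of 23.2 ± 0.699 and 10.8 ± 0.496 CPM gave a log2 fold change of −1.10 (SE 0.0735). In the parental line MT1X and MT1G had similar levels, 57.4 ± 1.73 and 53.6 ± 1.91 CPM per kb of transcript, and in LNCaP-enzaR the levels were 26.7 ± 1.23 and 0.101 ± 0.0621 CPM per kb. Of the 305 stretches of 100 bases of the MT1X transcript, 67 (22.0%) also occur in a transcript of the gene ENSG00000259827, which lies on the same strand and shares 18.6% of the exonic bases of MT1X, so part of its reads cannot be assigned to it alone.

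MT2A (ENSG00000125148.7), the gene of the metallothionein that most tissues express at the highest level, had 6328, 5734 and 5477 counts in parental and 7915, 5999 and 6860 in LNCaP-enzaR libraries. In CPM the LNCaP-enzaR values were 91.7, 67.9 and 69.1, so that replicate 1 was above the others and replicates 2 and 3 lay within the parental range of 63.0 to 69.7. Means of 67.0 ± 3.54 and 76.3 ± 13.4 CPM gave a log2 fold change of 0.19 (SE 0.0970), which was 0.04 without LNCaP-enzaR replicate 1. Per kb of transcript MT2A stood at 167 ± 8.82 CPM in parental and 190 ± 33.4 CPM in LNCaP-enzaR cells, above each of the other 3 genes in both lines. None of its stretches of 100 bases occurs elsewhere, which was also found for MT1F.

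MTF1 (ENSG00000188786.10), the zinc-sensing activator, had 4366, 4334 and 3938 counts in parental and 4084, 4315 and 4601 in LNCaP-enzaR libraries. The values overlapped, at 48.3 ± 1.59 and 47.5 ± 1.26 CPM. The log2 fold change was −0.02 (SE 0.0595), and its sign turned under upper-quartile scaling (0.08), so no direction is given. Transcript level says nothing of the nuclear entry of the protein, which was not measured. Of 7838 stretches of 100 bases, 18 (0.230%) occur elsewhere.

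The order of the levels per kb was MT2A, then MT1X and MT1G, then MTF1 and MT1F in parental cells. MT1X and MT1G differed by about the sum of their SDs, and so did MTF1 (6.09 ± 0.200) and MT1F (4.83 ± 1.05 CPM per kb). In LNCaP-enzaR the order was MT2A, MT1X, MTF1 (5.99 ± 0.158), MT1F (1.65 ± 0.440) and MT1G, each apart from the next by more than their SDs.

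Summed over the 4 metallothionein genes, the level was 116, 110 and 117 CPM in parental and 103, 80.0 and 80.5 CPM in LNCaP-enzaR libraries. The LNCaP-enzaR values lay below the parental values, and replicate 1 was nearest to them. The means of 114 ± 3.86 and 87.8 ± 13.1 CPM differed by −23.1%. On the log2 scale the ratio of the means was −0.38, and without LNCaP-enzaR replicate 1 it was −0.50. Without MT2A the sum went from 47.2 ± 0.345 to 11.5 ± 0.509 CPM, a change of −75.6%, with little spread in either line. MT1E, MT1H and MT1M are not part of these sums.

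The make-up of the sum differed between the lines. MT2A contributed 58.7% ± 1.13 of the summed CPM in parental and 86.6% ± 2.24 in LNCaP-enzaR cells. MT1G contributed 19.2% ± 1.08 and 0.0450% ± 0.0214. MT1X went from 20.3% ± 0.838 to 12.5% ± 2.21 of the sum, and MT1F from 1.79% ± 0.336 to 0.799% ± 0.210. MT2A made up the larger share in every library. The lines did not overlap in the share of any of the 4 genes, and the CPM of 70.6% of all genes tested did not overlap either. The shares are parts of 1 sum, so the share of MT2A rises where those of the others fall. Its own CPM overlapped between the lines.

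**Figure D2:**
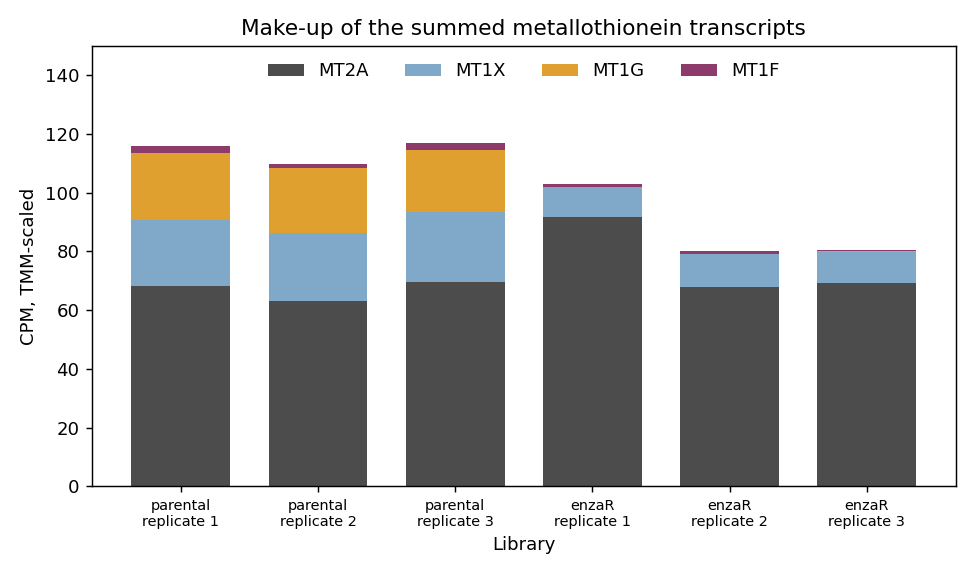
Bars give the summed level of MT2A (dark grey), MT1X (blue), MT1G (yellow) and MT1F (purple) in each library, in TMM-scaled CPM on a linear axis from 0. The sum falls from 110 to 117 CPM in parental libraries to between 80.0 and 103 CPM in LNCaP-enzaR (labelled enzaR), where the MT1G part is too small to be seen.

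Of the 6 further rows with a metallothionein symbol, 2 were tested. MT3, the metallothionein best known from the brain, had 3, 6 and 9 counts in parental and 34, 11 and 6 in LNCaP-enzaR libraries. The highest value came from replicate 1, the lines overlapped, and the log2 fold change of 1.44 (SE 0.745) did not pass the test (edgeR, adjusted p = 0.105). Without LNCaP-enzaR replicate 1 it was 0.39 (adjusted p = 0.725). MT1DP, a pseudogene whose exonic bases all lie in exons of other genes, had 29 to 33 counts in parental and 44, 29 and 9 in LNCaP-enzaR libraries, with a log2 fold change of −0.21 and an adjusted p of 0.725 (edgeR), and of −0.76 with an adjusted p of 0.231 without replicate 1. The other 4 rows (MT2P1, MT1P1, MT1XP1 and MT1CP) held at most 20 counts in any library and were not tested.

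The genes around the metallothioneins were examined to see whether neighbours on chromosome 16 were lower as well. Within 1000000 bases of the 4 genes, 28 genes without a metallothionein symbol were tested (MT3 and MT1DP, which also lie there, were left out of this count). Of these, 5 were higher, 5 were lower and 18 did not pass both limits. Among all genes tested 42.7% passed them, so nothing is read from these counts. The median log2 fold change was −0.11, beside 0.01 over all genes tested. Beyond the metallothionein genes, the nearest genes with a symbol on the MT2A side were BBS2, OGFOD1 and NUDT21, and on the MT1X side NUP93-DT, NUP93 and HERPUD1. NUP93, which encodes a nucleoporin of the inner ring of the nuclear pore and starts 45.9 kb beyond MT1X, fell from 281 ± 0.764 to 57.2 ± 2.15 CPM (log2 fold change −2.29, SE 0.0547, edgeR adjusted p = 2.11e-13). NUDT21, a subunit of an mRNA 3′ end processing complex, was lower by −0.77 (adjusted p = 3.83e-07), though 45.9% of its exonic bases lie in exons of other genes.

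BBS2, a protein of the primary cilium, had a log2 fold change of 0.29 and HERPUD1, a gene of the endoplasmic reticulum stress response, one of −0.52, both with an adjusted p under the limit but a fold change under 1.5 (edgeR, adjusted p = 0.00159 and 2.23e-06). OGFOD1, a prolyl hydroxylase of a ribosomal protein, and NUP93-DT, a non-coding RNA, had values of −0.11 and −0.26 and did not pass the test (adjusted p = 0.111 and 0.549). GNAO1, chosen after its values were seen because it moved the other way, encodes a G protein subunit and ends 251 kb before MT2A. It rose from 0.244 ± 0.0886 to 10.7 ± 0.0723 CPM (log2 fold change 5.46, edgeR adjusted p = 3.18e-12). Within the span, MT2A at one edge overlapped between the lines, while MT1X at the other edge and MT1F and MT1G between them did not. Whether the region as a whole bears on these values was not tested.

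Around MTF1, 22 genes were tested, of which 3 were higher, 6 were lower and 13 did not pass both limits, with a median of −0.01. Here too the share over all genes tested was 42.7%, and nothing is read from the counts. The nearest were C1orf122, whose function is little described, and YRDC, a tRNA-modifying enzyme, on one side, and INPP5B, an inositol phosphatase, and SF3A3, a splicing factor subunit, on the other. YRDC and SF3A3 were lower, with log2 fold changes of −0.68 and −0.73 (edgeR adjusted p = 2.11e-07 and 1.61e-08). C1orf122 (0.25) and INPP5B (−0.38) did not reach the fold limit.

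**Figure D3:**
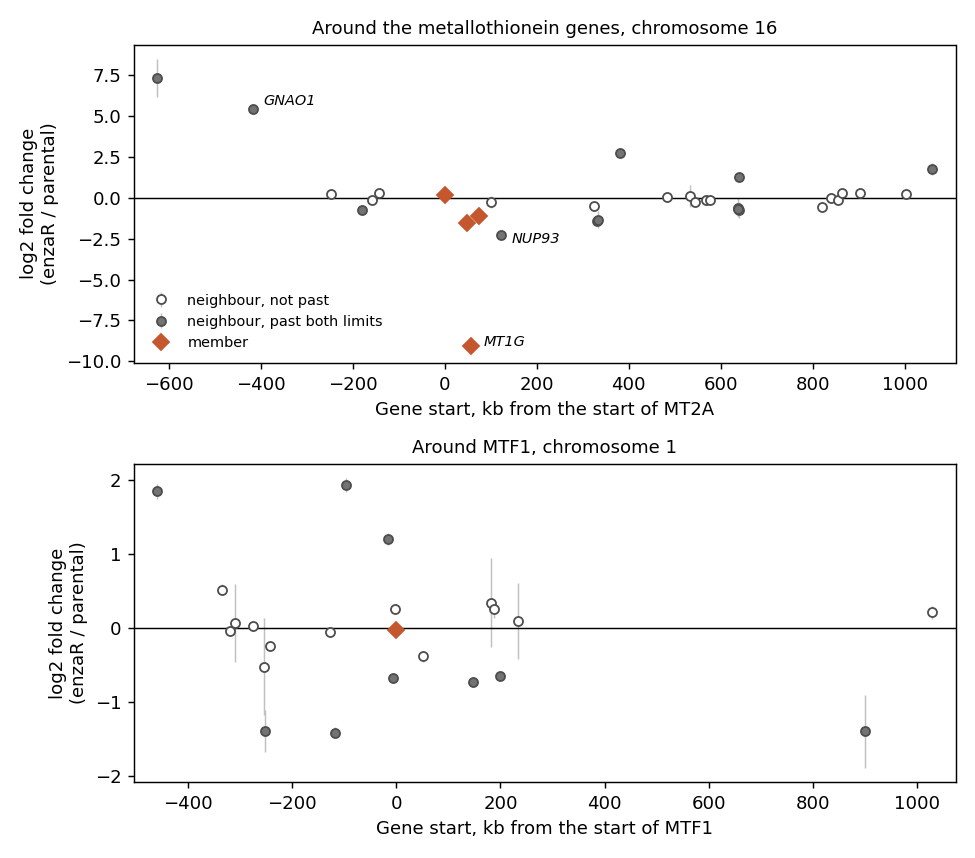
Log2 fold changes (LNCaP-enzaR over parental, with SE as bars) are plotted against the distance of each gene's start from that of MT2A (upper panel) or MTF1 (lower panel), in kb; diamonds are members, filled circles are neighbours past both limits and open circles are other neighbours, with MT3 and MT1DP left out. In the upper panel MT1G lies at −9.04, NUP93 at −2.29 and GNAO1 at 5.46, and the highest point is a gene with 0 counts in every parental library, for which only a fold of at least 6.52 can be stated.

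Other genes reported as MTF1 targets were taken from a list of 8. Of these, 3 were higher, 2 were lower and 3 did not pass both limits, with a median log2 fold change of −0.11. Over all genes tested, 42.7% passed both limits, with 23.3% higher, 19.5% lower and a median of 0.01. These shares stand beside the counts of this list and of each list below, from which nothing is read. SLC30A1, the zinc exporter of the plasma membrane and a classical target of MTF1, had 36.6, 33.3 and 34.4 CPM in parental and 50.1, 56.0 and 53.9 CPM in LNCaP-enzaR libraries. It was higher in each LNCaP-enzaR library, by 0.62 ± 0.0664 on the log2 scale (SE, edgeR adjusted p = 1.33e-06), which is close to the fold limit and fell under it (0.58) without parental replicate 2, without LNCaP-enzaR replicate 2 and with library totals. TXNIP, an inhibitor of thioredoxin, rose by 0.64 (adjusted p = 1.01e-07), from 118 ± 1.89 to 183 ± 7.76 CPM.

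The other genes of that list past both limits were named after their values were seen. GCLC, the catalytic subunit of the enzyme that starts glutathione synthesis, was higher by 0.67 on the log2 scale (edgeR adjusted p = 1.69e-06). SELENOH, a selenoprotein of the nucleolus, was lower, with −0.80 (adjusted p = 3.51e-06). SLC40A1, which encodes the iron exporter ferroportin, had 46, 49 and 28 counts in parental and 0 counts in each LNCaP-enzaR library, and was thus at least 14.1-fold lower against a floor of 3 counts per library (edgeR adjusted p = 5.38e-06). The median of the list was the same with SLC40A1 at that bound.

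Of 10 transcription factors and regulators through which metallothionein genes are also induced, 3 were lower, 0 were higher and 7 did not pass both limits (median −0.22). Among all genes tested 19.5% were lower and 23.3% higher past both limits (median 0.01), and nothing is read from these counts. NFE2L2, the oxidative stress factor NRF2, had 89.4, 88.6 and 87.0 CPM in parental and 33.9, 38.9 and 36.9 CPM in LNCaP-enzaR libraries. This was a difference of −1.27 on the log2 scale (SE 0.0637, edgeR adjusted p = 3.45e-10). SP1, a general activator of GC-rich promoters, was lower by −0.66 (adjusted p = 1.86e-07), and KEAP1, which marks NRF2 for degradation and was named after its values were seen, by −0.63 (adjusted p = 2.18e-06). NR3C1, the glucocorticoid receptor gene, had 19 to 25 counts in parental and 26 to 51 in LNCaP-enzaR libraries and did not pass the test (log2 fold change 0.63, adjusted p = 0.203).

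Zinc importers of the ZIP family were 12 genes tested of 14 listed. Here 4 were higher, 2 were lower and 6 did not pass both limits, with a median of −0.02. SLC39A8, a zinc and manganese importer at the cell surface, had 107, 107 and 94.7 CPM in parental and 356, 404 and 385 CPM in LNCaP-enzaR libraries. The lines were far apart for this gene, and LNCaP-enzaR was higher by 1.89 on the log2 scale (SE 0.0662, edgeR adjusted p = 8.12e-12). SLC39A11, an importer of the ZIP family, rose from 18.1 ± 0.597 to 42.1 ± 1.02 CPM (log2 fold change 1.22, adjusted p = 6.19e-10). In contrast, SLC39A14, an importer of zinc and iron that was named after its values were seen, fell from 213 ± 8.22 to 123 ± 2.93 CPM (−0.79, adjusted p = 9.08e-09).

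Zinc exporters of the ZnT family were 8 genes tested of 10 listed, with 3 higher, 1 lower and 4 that did not pass both limits (median 0.32, SLC30A1 included). SLC30A4, which moves zinc into vesicles, rose from 138 ± 1.96 to 252 ± 20.6 CPM (log2 fold change 0.87, edgeR adjusted p = 1.75e-08). SLC30A10, which exports manganese, had 231, 213 and 250 counts in parental and 35, 58 and 36 in LNCaP-enzaR libraries. It was lower in all 3 LNCaP-enzaR libraries, by −2.49 on the log2 scale (SE 0.237, adjusted p = 3.61e-07).

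Of 12 copper handling genes, 2 were higher, 0 were lower and 10 did not pass both limits (median 0.16). COMMD1, which takes part in copper export, rose from 8.85 ± 0.665 to 19.4 ± 1.95 CPM (log2 fold change 1.13, edgeR adjusted p = 6.75e-08). ATOX1, a copper chaperone, was at 0.61 (adjusted p = 4.33e-06), just above the fold limit, and fell under it without LNCaP-enzaR replicate 1 (0.52).

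The metal and heat stress response was described by 12 genes, of which 3 were higher, 4 were lower and 5 did not pass both limits (median −0.21). NQO1, a quinone reductase, had 70.9, 71.3 and 68.6 CPM in parental and 5.11, 4.90 and 5.56 CPM in LNCaP-enzaR libraries. LNCaP-enzaR thus differed by −3.76 on the log2 scale (SE 0.0741, edgeR adjusted p = 3.32e-14). SLC7A11, the cystine importer that feeds glutathione synthesis, fell from 257 ± 3.84 to 52.3 ± 7.95 CPM (−2.30, adjusted p = 2.26e-11). HMOX1, the haem oxygenase that cadmium and other metals induce, moved the other way, from 24.0 ± 1.60 to 47.3 ± 3.40 CPM (0.98, adjusted p = 3.12e-08), and was named after its values were seen. Also higher was HSPA1B, a heat shock gene, from 89.7 ± 8.97 to 139 ± 7.85 CPM (0.63, adjusted p = 2.60e-06). HSPA1A, another, had 36 to 49 counts in parental and 61 to 113 in LNCaP-enzaR libraries (0.88, adjusted p = 0.0204). HSPH1 was lower by −0.47, under the fold limit. These heat shock genes were likewise named after their values were seen.

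Glucocorticoid response genes were 9, with 1 higher, 3 lower and 5 that did not pass both limits (median −0.57). FKBP5, a co-chaperone of steroid receptors that androgens induce as well, fell from 263 ± 6.44 to 55.3 ± 3.19 CPM (log2 fold change −2.25, SE 0.0598, edgeR adjusted p = 6.16e-13). CEBPD, a transcription factor of the acute response, had 772, 736 and 845 counts in parental and 12, 18 and 19 in LNCaP-enzaR libraries. On the log2 scale the difference was −5.65 (SE 0.194, adjusted p = 6.83e-12). SGK1, the higher gene of this list, rose from 1.12 ± 0.197 to 2.32 ± 0.182 CPM (1.05, adjusted p = 0.000141). It was named after its values were seen. All of these lists were drawn up with earlier results of these data known, and no list was tested as a set. Since 42.7% of all genes tested passed both limits, nothing is read from the counts of any list.

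**Figure D4:**
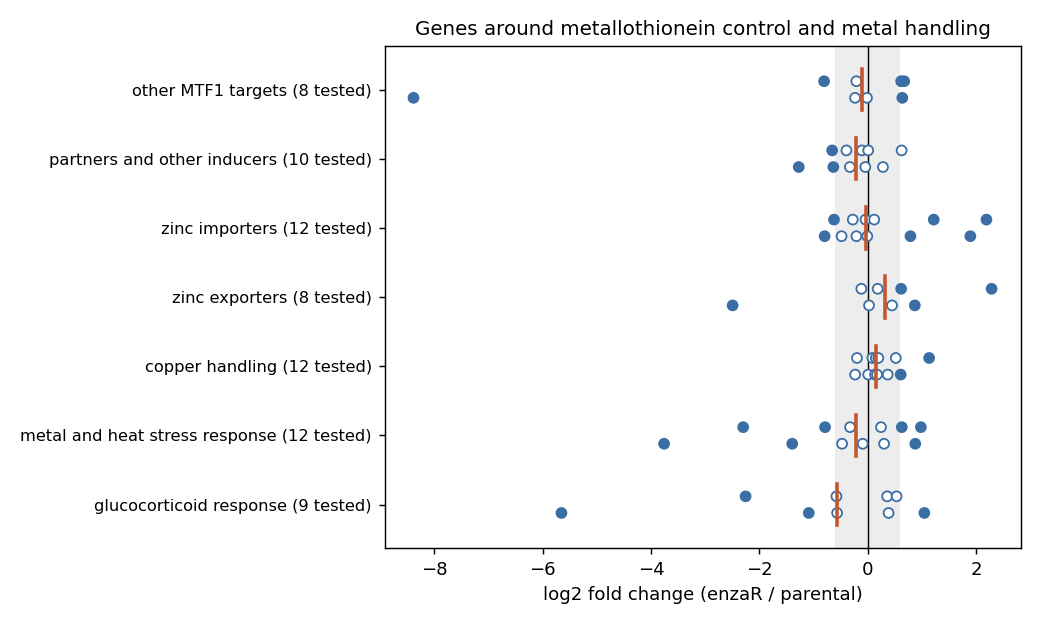
Each circle is a gene of the 7 lists, placed by its log2 fold change (LNCaP-enzaR over parental); filled circles passed both limits, open circles did not, the orange bar is the median of the list, the black line the median of all genes tested (0.01) and the grey band the range under a fold change of 1.5. Medians lie between −0.57 and 0.32, and the point at the far left is SLC40A1, whose fitted value stands for at least a 14.1-fold difference.

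Genes whose pattern over the 6 libraries was most like that of the summed metallothioneins were sought among 10602 genes of at least 5 CPM, by the Euclidean distance of log2(CPM + 0.5) after centring each gene on its own mean. The nearest 5 were MTX1, ACOT7, YIF1A, RRP1 and TRIM28, at distances of 0.0667 to 0.0934. For MTF1 they were EIF3A, CTNNB1, DCUN1D3, RPRD2 and TBCA, at 0.0431 to 0.0572. The points are 6 libraries of 2 lines, and within a line the sum departed most from its mean in LNCaP-enzaR replicate 1.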

How the data were processed

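Polyadenylated RNA libraries of LNCaP and LNCaP-enzaR cells (3 flasks each) were sequenced as paired-end reads. The authors trimmed adapters with Cutadapt, aligned reads to GRCh38.p13 with STAR and counted them per gene with featureCounts, and deposited raw counts per gene, not normalized. The strand setting and the handling of multi-mapping reads are not given in the sources used here, which matters for metallothioneins because the genes resemble each other. The sample titles gave the group and the replicate number.

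Genes were kept by filterByExpr (19711 genes, 99.96% of counts), libraries were scaled by TMM, and a robust quasi-likelihood F-test (edgeR 4.0.16, R 4.3.3, no covariates) compared the lines, with Benjamini-Hochberg adjustment over all genes tested. The study's methods name DESeq2, which was run (1.42.0) as an alternative. The limits were adjusted p ≤ 0.05 and fold change ≥ 1.5, in either direction. Fold changes are LNCaP-enzaR over parental, and lower bounds use 3 counts per library. P-values measure the spread between flasks. Members, lists and the rule for named genes were chosen with earlier results of these data known. Named were all members, other metallothionein rows and the nearest neighbours with a symbol other than metallothioneins (3 on each side on chromosome 16, 2 on each side of MTF1). The 2 genes of smallest p in each list and the 5 genes most alike were also named. NR3C1 and the marker genes were named besides these, and all other names are marked.

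Every stretch of 100 bases of the members' canonical transcripts (GENCODE v44, a later annotation of the same build, in which 35473 of the 35554 rows were found by identifier) was searched in the genome and in other transcripts. Coordinates are those of the deposited table. Of the 8 symbols, 4 had an entry in the RefSeq promoter table. On simulated counts the edgeR test was checked on 19190 genes and recovered 84% of genes changed 1.5-fold and 100% of those changed 2-fold, 4-fold or 8-fold. Recovery meant adjusted p ≤ 0.05 with the right direction, without the fold limit. The changed genes had a mean above 1 CPM, and all other genes were left unchanged. These shares are therefore not the sensitivity of calls at both limits, nor of calls at lower levels. Alternatives were RLE, library totals and upper-quartile scaling, DESeq2, no filter on counts, a minimum of 10 counts in every library, the replicate number as a block, and leaving out each library.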

Additional observations from a re-analysis of the deposited data

How the results depend on the processing

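Of 31 genes named by the rule, 24 kept their call and direction in every alternative, and so did 390 of the 400 values recomputed. Genes named after their values were seen, NR3C1, marker genes and the genes most alike were not recomputed. Among these, KEAP1 (−0.63) and HSPA1B (0.63) lay close to the fold limit, and whether their calls hold in the alternatives is not known. Each alternative left the calls of MT1G, MT1F, MT1X and MT2A as they were where it could test them, except that MT1G, with under 10 counts in LNCaP-enzaR libraries, had no value at the filter of at least 10 counts, which lowered the count of members past both limits to 2. The sign of the log2 fold change of MTF1 turned under upper-quartile scaling (0.077), which moved the median of all genes tested to 0.11. That of MT1DP turned without LNCaP-enzaR replicate 3 (0.24; range −0.76 to 0.24 when each library was left out), and MT3 passed both limits there (1.87), with a range of 0.39 to 1.93 when each library was left out. SP1 (−0.56) and YRDC (−0.58) fell under the fold limit with upper-quartile scaling, and SLC30A1 (0.58) and ATOX1 (0.57) with library totals. The causes were not tested. The log2 ratio of the summed metallothioneins was −0.50 to −0.32 when each library was left out, and −0.42 to −0.28 across scalings. Replicate numbers did not pair the libraries (correlations of same-number deviations −0.21, 0.0085 and −0.12). With the replicate block, 8212 genes passed both limits compared with 8425 without it, and 3 members did in both. Upper-quartile scaling gave 60.9% of calls as higher. Depth limits statements on MT1F, MT3 and the pseudogenes, and on MT1G in LNCaP-enzaR.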
